A study of Bombus terrestris with 8 samples.

Results

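bte-mir-2765 is one of the 65 entries that the deposited table of sequenced miRNAs lists for the bumblebee Bombus terrestris. It was found by its name in that table, and it was chosen by its counts in these libraries, which were higher in late than in early larvae. The size of that rise is therefore given as a description with no test. Small RNA was sequenced from the whole bodies of diploid female larvae destined to become workers. The 4 early libraries were made from larvae of instars 1 and 2 and the 4 late libraries from larvae of instar 4, each from a pool of larvae of 1 stage and 1 of 4 colonies. By the study's methods each colony gave 2 libraries. The colony behind each replicate number is not given in the sample descriptions, so the fits below carry no term for colony.

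A miRNA is cut from a hairpin in its primary transcript by Drosha and then by Dicer, and 1 strand of the resulting duplex is loaded into an Argonaute protein. The loaded strand finds its targets mainly through its seed, bases 2 to 8, and lowers the stability or translation of the mRNAs that hold a matching site. In holometabolous insects the last larval instar precedes metamorphosis, a transition paced by ecdysone and juvenile hormone, and some conserved miRNAs are known to change in level with these hormones. The table marks bte-mir-2765 as conserved between Bombus and other species. A target or a role of this miRNA in bees is not given in the sources used here, and none is assumed.

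The mature sequence is 22 nt long and is shown because its seed defines what the miRNA could pair with. The seed is in capitals, and the letters are those of DNA, as in the table.
bte-mir-2765: tGGTAACTccaccaccgttggc
It lies on scaffold Group9.3 of assembly Bter_1.0, plus strand, from 455315 to 455336, within a precursor of 87 nt from 455300 to 455386. The precursor is shown because it gives the arm and the hairpin, with the mature sequence in capitals.
bte-mir-2765 precursor: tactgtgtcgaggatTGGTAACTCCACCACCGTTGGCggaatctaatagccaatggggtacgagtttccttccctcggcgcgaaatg
The mature sequence starts at base 16 of the precursor and ends at base 37, so it is on the 5p arm. Of the 65 entries, 23 were on the 5p arm and 42 on the 3p arm. No entry was listed on the opposite arm of the bte-mir-2765 hairpin, and the split of reads between its arms was not analysed here. Gene models of Bter_1.0 were not used here, so whether the locus is exonic, intronic or intergenic was not analysed.

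Folded with RNAfold, the precursor formed a single hairpin with 28 base pairs and a terminal loop of 11 unpaired bases. Its minimum free energy was −41.8 kcal/mol, rank 11 from the lowest among the 65 listed precursors, whose median was −34 kcal/mol. Per 100 nt it was −48.0 kcal/mol, rank 9, against a median of −41.9. The hairpin was thus more stable than most of the list by either measure. Within the mature sequence 18 of 22 bases were paired, among them 6 of the 7 seed bases, and its last base formed the pair that closes the loop. That is 81.8% of the mature sequence, below the median of 86.4% over the listed miRNAs. The opposite stretch of the precursor, bases 49 to 69, is shown because it is the strand that pairs with the mature sequence in this fold.
Paired stretch: gccaatggggtacgagtttcc
This stretch was read from the predicted fold and is not a sequenced product in the table.

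**Figure D1:**
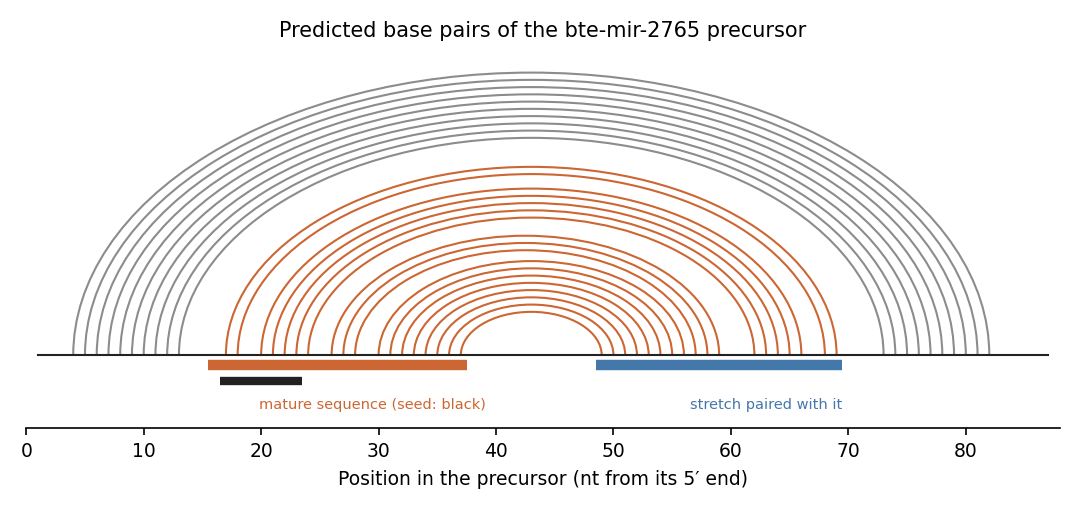
Predicted base pairs of the bte-mir-2765 precursor, with the position in nt from the 5′ end of the precursor on the x axis and an arc for each of the 28 pairs. The orange bar marks the mature sequence (bases 16 to 37), the black bar its seed, the blue bar the stretch opposite (bases 49 to 69), and orange arcs are the pairs that involve the mature sequence, which reach the 11 unpaired bases of the terminal loop.

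The mature sequence was rich in G and C, at 59.1% against a median of 45.5% over the 65 entries, which is rank 5 from the highest. The precursor had 52.9% G and C against a median of 48.1%. Like 41 of the 64 distinct mature sequences, it began with U, which is written T in the table. The full mature sequence did not occur in any other listed precursor on either strand (0 of 64), so its reads were not shared with another entry through an identical sequence.

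None of the 63 other distinct mature sequences had the same seed. The closest at the same positions was bte-mir-276, an abundant miRNA whose seed matched 5 of the 7 bases. The 7 bases GGTAACT also occurred outside the seed of 1 other miRNA, bte-mir-3477, at its bases 12 to 18, and their reverse complement AGTTACC in 1 of the 64, bte-mir-2944, at its bases 13 to 19. These sequences are shown to let the seeds be compared, with the bases concerned in capitals. In bte-mir-276 the capitals are its own seed.
bte-mir-276: tAGGAACTtcataccgtgctct
bte-mir-3477: taatctcatgcGGTAACTgtga
bte-mir-2944: tatcacagcagtAGTTACCtagg
bte-mir-2765 was thus the sole listed member of its seed family. No pairing or exchange of reads between these miRNAs was tested. It was also the only entry on Group9.3, as was the case for the entries of 23 of the 36 scaffolds in the table, and so it had no listed neighbour in a cluster.

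Summed over the listed miRNAs, the early libraries held 204223 to 502540 reads and the late ones 45649 to 257161, and late replicate 4 was the shallowest. These sums are not the full depth of the libraries, and the intervals below cover counting error only. In whole larvae, a change in the number of cells that make a miRNA and a change in its level per cell cannot be told apart.

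bte-mir-2765 had 2241 reads in all, rank 27 of the 63 mature sequences whose row has no blank cell. By total it was rank 6 among the 18 entries that were kept for their conservation and not predicted by miRCat. The late libraries held 62.4% of its reads, but 27.8% of all listed reads. In early replicates 1 to 4 it had 295, 277, 111 and 159 reads. In late replicates 1 to 4 it had 610, 303, 413 and 73 reads. The smallest of these counts, in late replicate 4, has a counting error of 11.7%, and the largest, in late replicate 1, one of 4.05%.

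Its share of the listed reads was 0.0587%, 0.0551%, 0.0544% and 0.0580% in early replicates 1 to 4. The shares in late replicates 1 to 4 were 0.237%, 0.214%, 0.323% and 0.160%. Each late library was above each early one. The 95% Clopper-Pearson counting interval was 0.125% to 0.201% for the lowest late share and 0.0522% to 0.0658% for the highest early share. These intervals leave out the spread between libraries, and bte-mir-2765 was chosen for this difference, so they are no test of the stages. Early larvae had a mean share of 0.0565% ± 0.00214 (SD, n = 4) and late larvae one of 0.234% ± 0.0681 (SD, n = 4), a ratio of 4.13.

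After normalization by edgeR's TMM method, which corrects the listed totals for shifts in composition, the normalized count was 505, 481, 487 and 623 CPM (counts scaled to a total of 1000000) in early replicates 1 to 4. It was 2709, 2472, 3780 and 1434 CPM in late replicates 1 to 4. The stages did not overlap, and the lowest late library was 2.30 times the highest early one. Such a gap between the stages, in either direction, was seen for 20 of the 62 miRNAs tested (32.3%), and for 8 of 62 (12.9%) with late larvae higher. By share of the listed reads the gap was seen for 23 of 62 (37.1%), and for 7 of 62 (11.3%) with late larvae higher. bte-mir-2765 is counted in each of these numbers, and it was chosen for this difference. Early larvae had a mean of 524 ± 66.7 CPM (SD, n = 4) and late larvae one of 2599 ± 963 CPM (SD, n = 4), a ratio of 4.96.

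**Figure D2:**
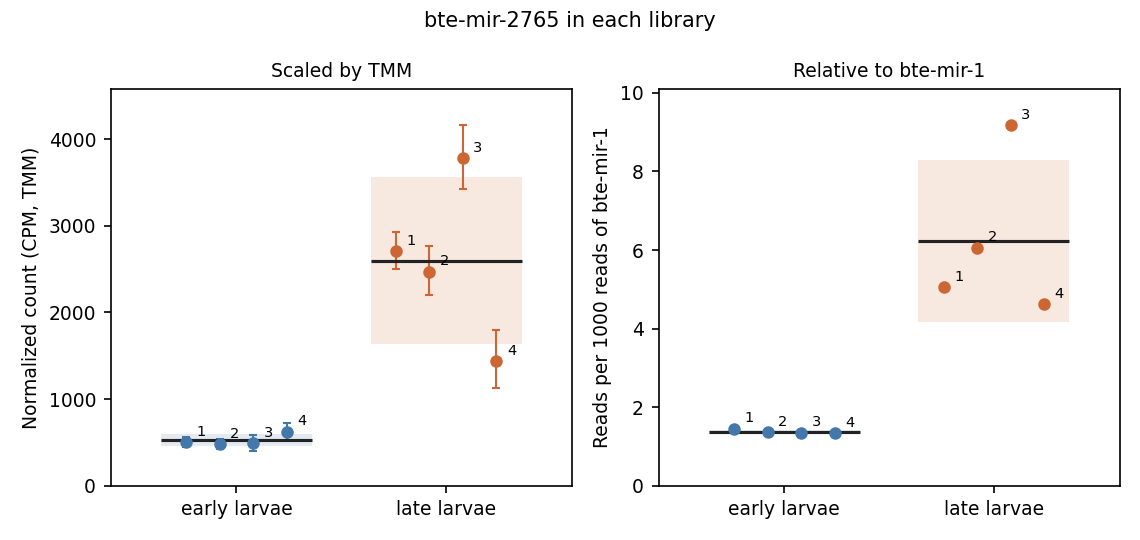
bte-mir-2765 in each library, as normalized count in CPM (left, with 95% Clopper-Pearson counting intervals) and as reads per 1000 reads of bte-mir-1 (right), with linear axes from 0. Each point is a library labelled with its replicate number, the line is the stage mean and the shaded band 1 SD either side. The early libraries sit between 481 and 623 CPM and the late ones between 1434 and 3780 CPM, with no overlap in either panel.

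The rise did not depend on a scaling factor when it was read as a ratio within each library. bte-mir-1, a muscle miRNA that took the most reads in the list, served as the first reference, chosen after its values were seen. Per 1000 reads of bte-mir-1 there were 1.45, 1.36, 1.35 and 1.34 reads of bte-mir-2765 in early replicates 1 to 4. There were 5.06, 6.06, 9.18 and 4.63 in late replicates 1 to 4. The mean ratio was thus 4.53 times higher in late larvae, at 6.23 ± 2.05 (SD, n = 4) against 1.37 ± 0.0515 (SD, n = 4). Set against each of the 61 other tested miRNAs in turn, with 0.5 reads added, bte-mir-2765 had the higher mean log2 ratio in late larvae for 56 of them, and the ratio was higher in every late than in every early library for 46. The 5 miRNAs against which its ratio was lower in late larvae were bte-mir-6001, MC476, MC1607, MC1211 and bte-mir-3759. The median change of the log2 ratio over the 61 was 2.37.

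In the fit across all 62 tested miRNAs, late larvae exceeded early larvae in bte-mir-2765 by 2.31 on the log2 scale (standard error 0.34), or 4.97-fold. The median of all tested miRNAs was 0.18 in this fit, so relative to the list the rise was 2.13 on the log2 scale. Its log2 fold change was rank 7 from the highest of 62, and rank 6 to 8 in the alternative fits. The lowest place, rank 8, was without late replicate 3, where it was 2.08. Among the 27 miRNAs with at least as many reads it was rank 1 in the fit of all libraries. The next of these, bte-mir-11, had 2.10 with a standard error of 0.58, and its distance from bte-mir-2765 was below that error. In this fit the miRNAs that rose more were therefore all less abundant over the 8 libraries together. The cut was the total of bte-mir-2765 itself, of which 62.4% came from the late libraries, so this place is a description only. MC1607, with 1031 reads, fell below the cut. Its log2 fold change was 4.16 and its mean in late larvae 2339 CPM. The order among the 27 was not computed in the other fits. The standard error of bte-mir-2765 was smaller than the median of all tested miRNAs, which was 0.48.

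**Figure D3:**
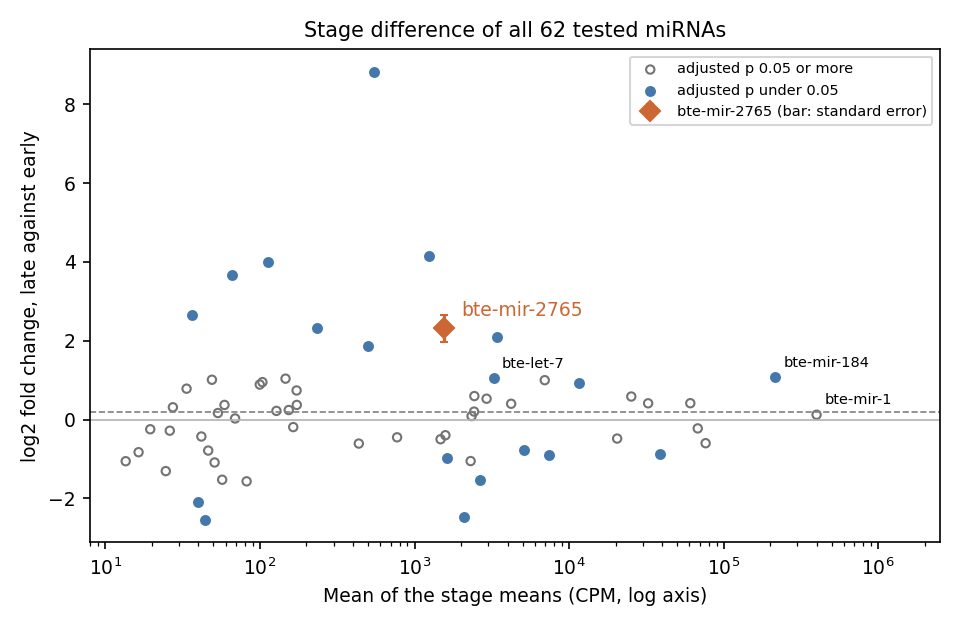
Stage difference of the 62 tested miRNAs, with the mean of the stage means in CPM on a logarithmic x axis and the log2 fold change of late against early larvae on the y axis. Filled circles passed edgeR's quasi-likelihood test at an adjusted p under 0.05, the diamond is bte-mir-2765 with its standard error, and the dashed line is the median of all tested miRNAs, 0.18. bte-mir-2765 stands at 2.31, above every miRNA to its right.

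Taken library by library against the early mean, the log2 difference of bte-mir-2765 was 2.37, 2.24, 2.86 and 1.47 in late replicates 1 to 4. These differences were at rank 7, 6, 4 and 9 of the 62 miRNAs within those libraries. All 4 late libraries thus carried the rise, with late replicate 3 the highest and late replicate 4 the lowest.

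The rise was computed again with other scalings and with each library left out. With DESeq2's size factors, scaling by the listed total, upper-quartile factors, bte-mir-1 left out, no filter on low counts or a replicate block, the log2 fold change ran from 2.05 to 2.27. With 1 library left out it ran from 1.82 without late replicate 1 to 2.51 without late replicate 4. Part of this range was shared by the whole list, whose median was −0.51 without late replicate 1, −0.26 without early replicate 2 and 0.32 without late replicate 4. Relative to that median the log2 fold change stayed between 1.96, without late replicate 3, and 2.33, without late replicate 1. In each of the 14 settings in which the overlap of libraries was examined, the late libraries kept in the fit were above the early ones.

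**Figure D4:**
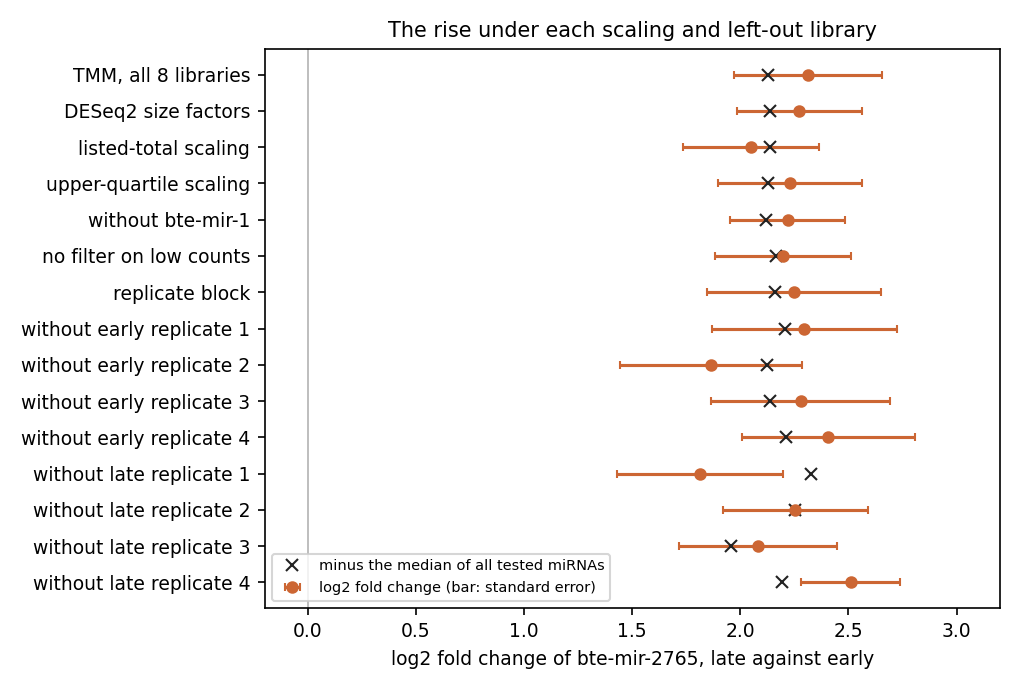
The log2 fold change of bte-mir-2765, late against early larvae, on the x axis, for the TMM fit of all 8 libraries and 14 alternatives on the y axis. Circles with bars are the estimate and its standard error, crosses the estimate minus the median of all tested miRNAs in the same fit. The circles run from 1.82 to 2.51 and the crosses from 1.96 to 2.33, so both stay above 0.

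How far the early libraries differed from each other depended on the scaling. Over the early libraries bte-mir-2765 had a coefficient of variation of 3.78% as a share of the listed reads, and of 12.7% as a normalized count, rank 18 from the lowest of 62 against a median of 21.9%. Over the late libraries it was 29.1% as a share and 37.1% as a normalized count, rank 19 against a median of 56.0%. Counting error alone was 5.82% to 9.49% in single early libraries and 4.05% to 11.7% in single late ones. The early 3.78% was thus below counting error and is no sign of a tightly held level. By either scaling the late libraries were thus more spread in these samples than the early ones, a difference that was not tested.

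By normalized count bte-mir-2765 was at rank 29 of 63 in early larvae and at rank 19 in late larvae. Within single libraries it was at rank 29, 29, 29 and 28 in early replicates 1 to 4 and at rank 18, 21, 15 and 23 in late replicates 1 to 4. It thus moved up the list in each late library. In early larvae its neighbours were bte-mir-996 above, with 532 ± 47.5 CPM (SD, n = 4), and MC295 below, with 213 ± 106 CPM (SD, n = 4). The level of bte-mir-996 lay within the spread of bte-mir-2765, while the 4 libraries of MC295, 118 to 353 CPM, were all below it. In late larvae its neighbours were bte-mir-279a above, with 2942 ± 1466 CPM (SD, n = 4), and bte-mir-279c below, with 2597 ± 543 CPM (SD, n = 4). Neither differed from bte-mir-2765 beyond the spread of the libraries. Reads differ between miRNAs in how well they are ligated and amplified, so such ranks order the reads and not the molecules.

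The profile most like that of bte-mir-2765 was sought among the 49 other miRNAs with at least 100 reads, as the root mean square difference of log2 profiles over the 8 libraries, each centred on its own mean. Scaling factors cancel in this measure, and the stage difference is a large part of it. The closest were bte-let-7 at 0.68, bte-mir-184 at 0.71 and bte-mir-6037 at 0.94 on the log2 scale. With all 8 libraries MC295 followed close behind, at 0.96. Without late replicate 4, only bte-let-7 of these remained among the closest 3, and bte-mir-184 and bte-mir-6037 gave way to bte-mir-2796 and MC1607. bte-mir-6037 also left the closest 3 without early replicate 1, 2 or 3 and without late replicate 1 or 2. bte-mir-184 also left them without late replicate 3, while bte-let-7 stayed with any library left out. let-7 is known across animals as a marker of late development. bte-let-7 had 1944, 1919, 1539 and 3103 CPM in early replicates 1 to 4 and 6403, 3401, 4778 and 2965 CPM in late replicates 1 to 4. By CPM its late replicate 4 was below its early replicate 4, so its stages overlapped. By share of the listed reads they did not, with 0.172% to 0.289% in early and 0.294% to 0.561% in late libraries. bte-mir-184, the second most abundant miRNA of the list, had 105756 to 187985 CPM in early and 200776 to 362195 CPM in late libraries. Its log2 fold change was 1.07 (standard error 0.23, edgeR adjusted p = 0.00273), and without early replicate 2 it was 0.65 and no longer passed 0.05 (edgeR adjusted p = 0.138). For bte-mir-6037 the log2 fold change was 0.95 (standard error 0.48, edgeR adjusted p = 0.139), and it was 0.14 without late replicate 1 and 0.51 without early replicate 2. bte-mir-6037 had 187 reads in all, with 59.1 to 94.0 CPM in early and 73.2 to 200 CPM in late libraries. Its stages thus overlapped by CPM, and they also overlapped by share of the listed reads. Late replicate 3 was its lowest late library but the highest of bte-mir-2765. All 3 had smaller estimated rises than bte-mir-2765, a difference that was not tested because bte-mir-2765 was chosen for its own.

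**Figure D5:**
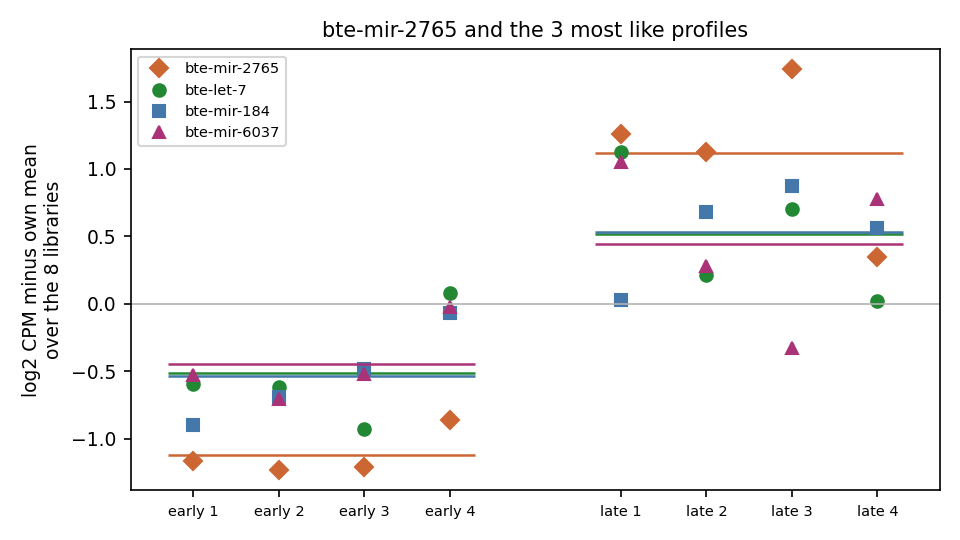
Profiles of bte-mir-2765 and the 3 most like it, as log2 CPM minus each miRNA's own mean over the 8 libraries (y axis), by library (x axis). Points are libraries and lines the stage means. bte-mir-2765 runs from −1.23 in early replicate 2 to 1.74 in late replicate 3, a wider range than bte-let-7, bte-mir-184 or bte-mir-6037, which stay between −0.93 and 1.12.

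When each stage was instead centred on its own mean, which removes the stage difference and was added after the data had been seen, the miRNA that followed bte-mir-2765 most closely among replicates was bte-mir-9a, at 0.18 on the log2 scale. bte-mir-9a, known in Drosophila for its part in the specification of sensory organs, had 82382 to 108546 CPM in early and 33679 to 78556 CPM in late libraries. Among late libraries both were lowest in replicate 4, by CPM and by share of the listed reads. Their highest late libraries differed by either scaling, with replicate 3 for bte-mir-2765 and replicate 1 for bte-mir-9a. Among early libraries both were highest in replicate 4 by CPM, but in replicate 1 by share. The other miRNAs of the closest 5 were at 0.26 to 0.27. All 5 were abundant, at rank 1 to 10 in early larvae. Counting error enters this difference and is larger for sparse miRNAs. How far the order follows abundance was not tested. Scaling factors cancel in this measure too. These values describe likeness over 8 libraries, and they carry no test.

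bte-mir-2765 was set beside 8 miRNAs with a known part in developmental timing, hormone response or growth in Drosophila or in the silkworm. Of these, 5 were among the tested miRNAs, and mir-100, mir-34 and mir-14 were not analysed here. By the quasi-likelihood test of edgeR, adjusted over all 62 by the Benjamini-Hochberg method, 1 of the 5 rose and 1 fell in late larvae, against 12 of 62 (19.4%) higher and 8 of 62 (12.9%) lower in the whole list. Their median log2 fold change was 0.89, against 0.18 for all tested. bte-let-7, which in Drosophila is induced at metamorphosis, rose by 1.05 on the log2 scale (standard error 0.32, edgeR adjusted p = 0.0181). This call was lost without early replicate 1 (edgeR adjusted p = 0.0613), early replicate 2 (0.288), early replicate 3 (0.0745) or late replicate 1 (0.415), where the log2 fold change was 1.01, 0.63, 0.92 and 0.36. bte-bantam, a growth-promoting miRNA in Drosophila, fell by 0.86 on the log2 scale (standard error 0.24, edgeR adjusted p = 0.0129), and it passed in all 14 alternative fits, with a log2 fold change from −1.48 without late replicate 1 to −0.67 without late replicate 4. It had 47452 to 51998 CPM in early and 15848 to 33754 CPM in late libraries, and these did not overlap. The other members did not pass. bte-mir-8, which acts on growth through insulin signalling in Drosophila, differed by 0.42 on the log2 scale (standard error 0.18, edgeR adjusted p = 0.0927). This value was 0.03 without late replicate 1, 0.08 without early replicate 2 and 0.20 when libraries were scaled by their listed reads alone. By CPM the stages of bte-mir-8 did not overlap, with 47907 to 54541 in early and 61649 to 79670 in late libraries. bte-mir-125, which is transcribed together with let-7 in Drosophila, had 0.89 (standard error 0.50, edgeR adjusted p = 0.184), and 0.59 without late replicate 2. bte-mir-281, which acts on the ecdysone receptor in the silkworm, had 1.01 (standard error 0.61, edgeR adjusted p = 0.206). Its value moved with single libraries, to 0.34 without late replicate 1, 0.37 without early replicate 2 and 0.45 without late replicate 2, while without late replicate 4 it was 1.28 and passed (edgeR adjusted p = 0.044). The rise of bte-mir-2765, 2.31 with a standard error of 0.34, was above the estimate of each of these 5. This difference was not tested, because bte-mir-2765 was chosen for its rise in these libraries and these 5 were not.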

How the data were processed

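The authors pooled the reads of the 8 libraries for mapping to the genome of B. terrestris, predicted precursors with miRCat or kept them by conservation, and deposited raw read counts per mature sequence and library, not normalized and not pooled. Aligner, mismatches and the treatment of end variants are not given in the sources used here, and each could change a count. Count columns were matched to libraries by stage initials and replicate number. An entry with blank cells in 7 libraries was left out, and a mature sequence listed at a pair of loci was counted once, which left 63 sequences. Those with at least 10 counts in all (62) were fitted with edgeR 4.0.16 (TMM, quasi-likelihood test, stage as the only term, Benjamini-Hochberg adjustment) in R 4.3.3. The fit was also run on simulated counts, with the same spread for all miRNAs and no change in the most abundant ones. It was thus not tested for shifts of abundant miRNAs. A standard error is the size of the log2 fold change over the square root of F. DESeq2 1.42.0 was an alternative. Precursors were folded with RNAfold 2.7.2, and the rest was computed with Python 3.11.15, pandas 2.3.3 and SciPy 1.17.1.

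The miRNA described, the lists and the alternatives were chosen with earlier results of these data known. Other miRNAs were named by rule: the 3 most like profiles, rank neighbours, the nearest seeds and the timing list. Those named beyond it were chosen after their values were seen. They are bte-mir-1, bte-mir-9a, bte-mir-11, bte-mir-3477, bte-mir-2944, the miRNAs that rose more and those that entered the closest 3. Ratios within libraries, values relative to the median, and profiles centred by stage were added once values were known.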

Additional observations from a re-analysis of the deposited data

Results flagged for a closer look

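The normalized count of bte-mir-2765 in early replicate 4, 623 CPM, was far from the other 3 early libraries, whose median was 487 CPM. The gap was 83.1% of the range of the 4 libraries, where such a gap would be met in about 5% of groups by chance. The rule was applied in both stages to bte-mir-2765, the 3 most like profiles and the tested timing miRNAs, and flagged no other group. The 5% is therefore not the chance of a flag among all of them. The TMM factor of this library was 0.931, against 1.12 to 1.16 in the other early libraries. Late replicate 4 also stood apart in its factor, at 1.12 against 0.856 to 0.876 in the other late libraries. As a share of the listed reads early replicate 4, at 0.0580%, lay inside the range of the other 3 early libraries, 0.0544% to 0.0587%.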

How the results depend on the processing

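The rise of bte-mir-2765 kept its direction in all 14 alternatives. With 1 library left out its log2 fold change was 1.82 to 2.51, its mean normalized count 496 to 622 CPM in early and 2162 to 2941 CPM in late larvae, and its rank 28 to 29 in early and 18 to 22 in late larvae. Without bte-mir-1 in the totals the means were 885 and 4110 CPM, because the same counts are then divided by smaller totals, and the log2 fold change was 2.22. Replicate numbers are not tied to colonies in the sources used here. Deviations from the stage means correlated at −0.0877, 0.0187, 0.0324 and −0.0792 across miRNAs for numbers 1 to 4. Sparse miRNAs weighed as much as abundant ones in these correlations, so they cannot show whether libraries of the same number share a colony. With the replicate block the log2 fold change was 2.25 and 18 miRNAs were called in place of 20. Calls over the list split into 12 higher and 8 lower under TMM, 12 and 13 with DESeq2's size factors, 11 and 14 with scaling by the listed total, and 12 and 11 with upper-quartile factors. With 1 library left out, 5 (without early replicate 2) to 15 (without late replicate 4) were higher. From 6 (without early replicate 1) to 20 (without late replicate 1) were lower. A gap with late larvae higher was then seen for 4 (without early replicate 2) to 14 (without late replicate 4). The timing list had 1 to 3 calls with 1 library left out, in place of 2. Of the closest 3 profiles, 1 to 3 were kept. The minimum free energy was −40.8 kcal/mol without dangling ends, −46.5 at 30 °C and −48.0 per 100 nt, at rank 11, 11 and 9. Late replicate 4, with 73 reads of bte-mir-2765, limits the precision in late larvae.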
